A study of Homo sapiens with 6 samples.

Results

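The genes described here are the protein-coding members of the TGF-beta and BMP signalling pathway: ligands, latent TGF-beta binding proteins, receptors and SMAD proteins. They were chosen by gene name, by a rule that uses no measured value, and the table held 43 of them among 58735 genes. Enough reads for a test were found for 32 members. RNA was sequenced from RPE-1, an immortalised human cell line of retinal pigment epithelial origin, in 6 libraries, and reads were counted per gene. One group of 3 libraries came from cells given an siRNA against SON, a nuclear speckle protein needed for efficient pre-mRNA splicing (siSON), and the other group of 3 from cells given a scramble siRNA (siControl). The cells of both groups carried GFP-tagged CETN2, which marks centrioles, and PLK4 under the rtTA doxycycline-inducible promoter. PLK4 was induced with 1 µg/mL doxycycline in both groups, so no library shows the cells without induction. Whether the replicates were separate cultures is not stated, and the p-values measure only the spread between these libraries.

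TGF-beta, activins and BMPs are secreted dimers that bring together type I and type II serine/threonine kinase receptors. The type II receptor phosphorylates the type I receptor, which phosphorylates receptor-regulated SMADs, and these enter the nucleus with the common SMAD4. TGF-beta is released in a latent form, bound to its propeptide and usually to a latent TGF-beta binding protein (LTBP) that ties it to the matrix. In retinal pigment epithelium the pathway is known for its part in the shift towards a mesenchymal state, in which cells lose pigment and epithelial markers.

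Promoter sequences are shown for 3 members: SMAD6, an inhibitory SMAD that rose after SON knockdown and the only matched member with a palindromic SMAD binding element in such a window, BMP4, the most abundant tested BMP ligand, and TGFB1, the ligand among the members with the largest fall. Each is the 250 bases before a RefSeq start (GRCh38.p14), read 5′ to 3′ on the gene's strand. The windows are chr15:66701986-66702235 on the plus strand for SMAD6, chr14:53955051-53955300 on the minus strand for BMP4 (the most upstream of 3 starts in the table) and chr19:41353923-41354172 on the minus strand for TGFB1. Capitals mark a match to 1 of 3 motifs searched on both strands.
SMAD6: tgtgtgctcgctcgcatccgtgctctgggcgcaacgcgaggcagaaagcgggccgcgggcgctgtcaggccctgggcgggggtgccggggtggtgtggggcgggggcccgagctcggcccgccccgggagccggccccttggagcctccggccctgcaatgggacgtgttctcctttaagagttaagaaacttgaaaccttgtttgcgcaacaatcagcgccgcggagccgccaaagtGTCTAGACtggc
BMP4: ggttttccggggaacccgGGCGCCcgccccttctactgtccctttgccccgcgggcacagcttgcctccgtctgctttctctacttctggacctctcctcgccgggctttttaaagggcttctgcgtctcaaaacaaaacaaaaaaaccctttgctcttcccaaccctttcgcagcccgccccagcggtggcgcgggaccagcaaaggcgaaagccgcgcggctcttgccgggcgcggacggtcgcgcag
TGFB1: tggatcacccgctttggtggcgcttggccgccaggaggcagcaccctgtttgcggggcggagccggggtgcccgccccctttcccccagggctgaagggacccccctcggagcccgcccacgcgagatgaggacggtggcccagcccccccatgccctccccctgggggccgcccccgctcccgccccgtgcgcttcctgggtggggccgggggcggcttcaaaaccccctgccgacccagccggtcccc
The SMAD6 window holds that element, GTCTAGAC, at 12 to 5 bases before the start. This motif was found in 0.182% of 35116 windows in the RefSeq table and in 1 of the 69 windows of the 37 members matched by symbol. The BMP4 window holds GGCGCC, a GC-rich site that BMP-branch SMADs can bind, which was found in 16.4% of all windows and in 20.3% of the member windows, from 12 genes. The CAGA box, searched as CAGACA, was found in 13.6% of all windows and in 18.8% of the member windows, from 11 genes, but not in the SMAD6, BMP4 and TGFB1 windows shown. BMP4 is among those 11 genes through a window that is not shown. The TGFB1 window matched none of the 3 motifs and is 76.8% G and C, beside 68.0% for SMAD6 and 63.6% for BMP4. A match is a string of letters and was not tested for binding.

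The libraries held 54572365 to 69764836 counts. SON itself had 295, 313 and 284 CPM (counts scaled to TMM library size) in the siControl libraries and 68.0, 70.0 and 65.0 in the siSON libraries, so that 22.8% of the control level was left. The log2 fold change of SON, always given as siSON over siControl, was -2.14 (edgeR adjusted p 6.78e-10, SE 0.06). Of 12 markers of mature retinal pigment epithelium, 5 were under 0.2 CPM in both groups (RPE65, RLBP1, TYRP1, and TYR and TTR with no count in any library). The other 7 all changed: BEST1, MITF and OTX2 rose by 0.62, 0.52 and 0.82 on the log2 scale, and RDH5, PMEL, LRAT and SERPINF1 had log2 fold changes of -3.57, -3.36, -2.62 and -1.29. PMEL and LRAT reached the count filter in 3 siControl libraries each, but in only 2 and 0 siSON libraries. Their place among the tested genes thus rests on the siControl group. The summed CPM of the 12 genes was 55.7 to 58.5 in siControl and 74.9 to 84.0 in siSON. Of 5 epithelial markers, the keratins KRT8 and KRT18 rose (0.34 and 1.48), and KRT19, EPCAM and CDH1 were under 0.2 CPM in both groups; their sum was 764.5 to 864 and 1331 to 1393 CPM. Of 5 mesenchymal markers, CDH2 rose (0.66), THY1 and PDGFRB fell (-0.57 and -0.87), and VIM and PDGFRA did not pass the threshold. For these 5 markers the summed CPM was 7658 to 8805 in siControl and 7444 to 7498 in siSON. The summed CPM ranged from 1.77 to 1.99 in siControl and from 0.590 to 1.38 in siSON for 4 endothelial markers. For 4 leukocyte markers the sums were 2.19 to 2.82 and 0.758 to 1.02.

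After SON knockdown TGFB1, INHBA and 3 of the 4 LTBP genes fell, whereas the receptors TGFBR2, TGFBR3, ACVR1B and ACVR2A and the ligands BMP2, BMP4 and BMP6 rose. A gene was called changed at an edgeR adjusted p under 0.05 over all genes tested. By this rule 25 of the 32 tested members changed (78.1%), beside 71.7% of the 16591 genes tested and 77.4% of the tested protein-coding genes, so the share of members called was near the background. Of these, 16 were higher (35.2% of all genes were) and 9 were lower (36.5% of all genes were). Among the 13008 protein-coding genes tested, 5242 were higher and 4830 were lower. The split of the members depended on scaling and became 12 higher and 14 lower with scaling to library size only. Changes of at least 2-fold were seen for 6 members upwards, beside 8.72% of all genes, and for 5 downwards, beside 20.5%. With library size alone these numbers were 4 upwards and 6 downwards. The groups did not overlap for 25 of the 32, beside 75.1% of all genes. The median log2 fold change was 0.28 over the tested members, -0.03 over all genes tested and 0.03 over the protein-coding genes tested. All tested members but ACVRL1 reached the count filter in each of the 6 libraries; ACVRL1 passed it through the siControl group.

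**Figure D1:**
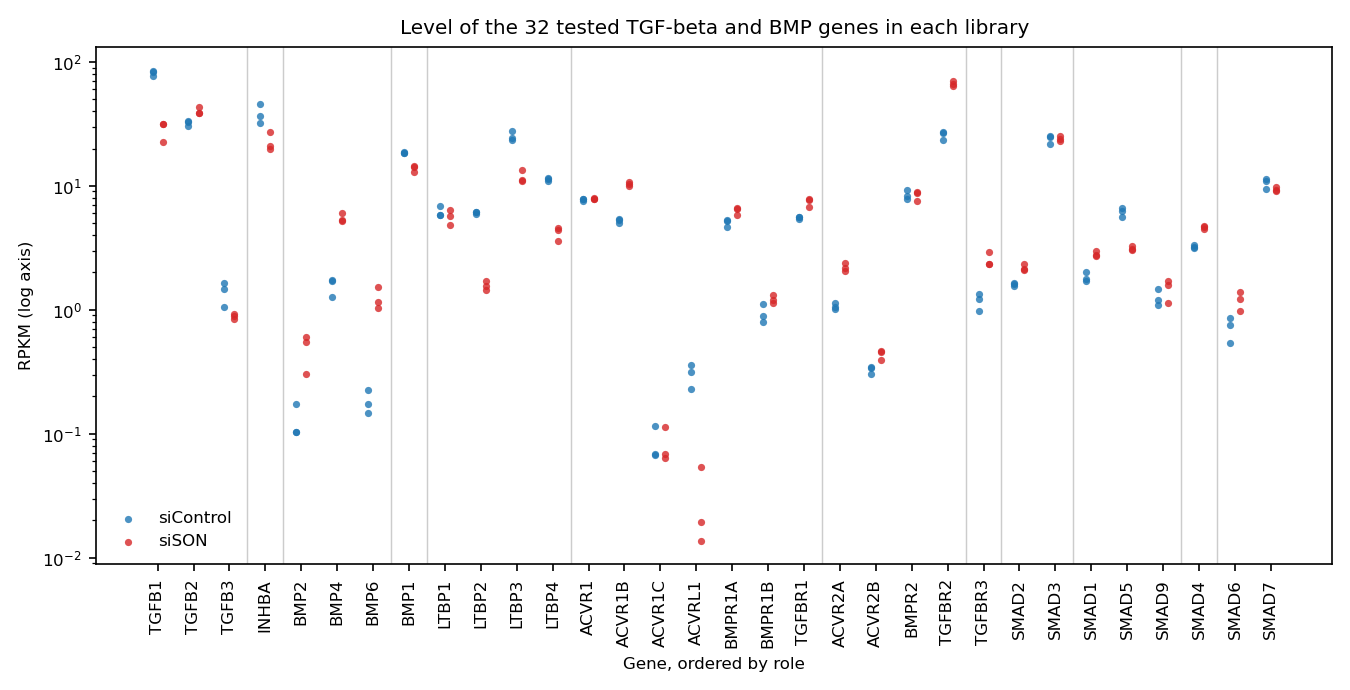
Level of each tested member in each library, as RPKM (CPM per kilobase of exon) on a log axis; each point is 1 library and vertical lines separate roles. The TGFB1 points lie highest in siControl and the TGFBR2 points lie highest in siSON, at means of 81.7 and 66.7 RPKM.

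**Figure D2:**
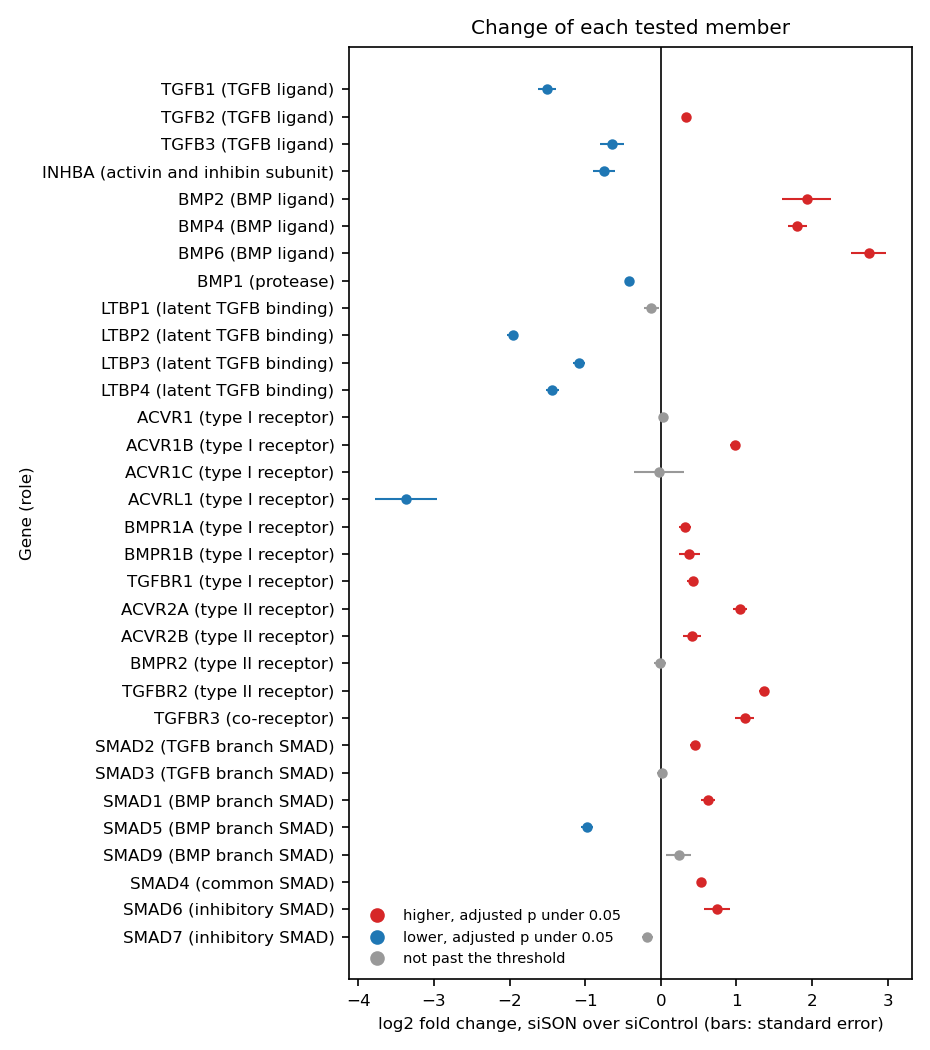
Log2 fold change of each tested member, siSON over siControl, with its standard error as a bar; colour gives the call. The 3 tested BMP ligands lie between 1.81 and 2.75, and LTBP2, LTBP3 and LTBP4 between -1.96 and -1.08.

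TGFB1, TGFB2 and TGFB3 encode the 3 TGF-beta isoforms. TGFB1 (ENSG00000105329; GRCh38 chromosome 19, 41301587 to 41353911, minus strand) had 248, 276 and 270.4 CPM in the siControl libraries and 73.6, 103 and 103 CPM in the siSON libraries. The lowest siControl library was above the highest siSON library. Group means were 265 ± 14.97 and 93.1 ± 16.8 CPM (± SD), and TGFB1 thus had a log2 fold change of -1.51 (adjusted p 1.94e-06, SE 0.12). TGFB2 (ENSG00000092969; chromosome 1, 218346235 to 218444619, plus strand) had 170.4, 155 and 167 CPM in siControl and 201, 221 and 201 CPM in siSON. The groups did not overlap, and TGFB2 rose by 0.34 on the log2 scale (adjusted p 0.000308, SE 0.06). This call was lost with library size alone (0.14, adjusted p 0.0544) and under cyclic loess normalization (0.03, adjusted p 0.692), and 26.6% of the exonic bases of TGFB2 are shared with TGFB2-OT1 on the same strand. TGFB3 was far lower, at 5.16, 7.28 and 8.03 CPM in siControl and 4.14, 4.58 and 4.35 CPM in siSON. The TGFB3 log2 fold change was -0.65 (adjusted p 0.00366, SE 0.16), and -0.31 (adjusted p 0.113) under cyclic loess.

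Per length of exon, the isoforms changed places. TGFB1 made up 69.1% to 72.9% of the summed RPKM of the 3 genes in the siControl libraries and 36.3% to 44.3% in the siSON libraries. TGFB2 made up 25.8% to 29.9% and 54.4% to 62.3%. The sum itself was 115 ± 3.86 RPKM in siControl and 69.9 ± 6.62 RPKM in siSON (SD, n = 3 each). These shares are given as a description, with no test. Fewer cells that express a gene and less of its RNA per cell cannot be told apart in such bulk libraries.

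INHBA, which encodes the subunit of activin A, was the only one of the 5 activin and inhibin subunit genes with enough reads for a test. It had 381, 301 and 269 CPM in siControl and 227, 174 and 165 CPM in siSON (chromosome 7, 41667168 to 41705834, minus strand). The replicates were spread widely, with replicate 1 highest in each group, but the groups did not overlap. The INHBA log2 fold change was -0.75 (adjusted p 0.00140, SE 0.15), and the call was lost when no count filter was used (adjusted p 0.0569). Of the other subunit genes, INHBB had no count in any library, INHBC had at most 2, INHBE 1 to 6, and INHA had 24, 4 and 8 counts in siControl and 2, 0 and 3 in siSON. When no count filter was used INHA was tested and called lower (adjusted p 0.0219).

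BMP ligands were scarce in siControl cells. Of 10 BMP ligand genes, 3 were tested and these 3 rose. BMP4 (ENSG00000125378; chromosome 14, 53949736 to 53958761, minus strand) had 5.29, 3.90 and 5.33 CPM in siControl and 18.6, 16.3 and 16.01 CPM in siSON. Every siSON library was above every siControl library, and the log2 fold change was 1.81 (adjusted p 2.60e-07, SE 0.13). BMP6 (ENSG00000153162; chromosome 6, 7726797 to 7881422, plus strand), known as a regulator of iron metabolism as well as of bone, had 34, 26 and 47 counts in siControl and 247, 149 and 163 counts in siSON. As CPM this was 0.508 ± 0.112 and 3.45 ± 0.715 (SD, n = 3 each), and the groups did not overlap. The BMP6 log2 fold change, 2.75 (adjusted p 1.02e-06, SE 0.23), was the highest of the tested members. BMP2, a bone-inducing ligand close to BMP4, had 26, 40 and 28 counts in siControl and 125, 56 and 100 in siSON. The log2 fold change of BMP2 was 1.93 (adjusted p 0.000253, SE 0.32), and its lowest siSON library was above its highest siControl library. Per length, BMP4 remained the most abundant of the 3, with 79.7% to 86.0% of their summed RPKM in siControl and 73.9% to 79.8% in siSON. The other 7 ligand genes had few or no counts: BMP5, BMP7, BMP10 and BMP15 had no count, BMP8A had at most 1 count, and BMP3 and BMP8B had at most 13. Counts of BMP8A and BMP8B, near-identical copies, are uncertain.

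BMP1 carries the family name but encodes a procollagen C-proteinase that also cleaves the BMP antagonist chordin and LTBP1. It had 136, 141 and 136 CPM in siControl and 96.2, 105 and 107 CPM in siSON. The groups did not overlap, and BMP1 fell by 0.42 on the log2 scale (adjusted p 4.10e-05, SE 0.06).

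The LTBP genes encode large fibrillin-like matrix proteins; LTBP1, LTBP3 and LTBP4 can bind latent TGF-beta, whereas LTBP2 does not bind it. LTBP2 (ENSG00000119681; chromosome 14, 74498170 to 74612378, minus strand) had 56.3, 53.7 and 55.7 CPM in siControl and 14.2, 15.4 and 13.02 CPM in siSON. These tight groups lay far apart, with a log2 fold change of -1.96 (adjusted p 4.22e-09, SE 0.08). LTBP4 (chromosome 19, 40592883 to 40629818, plus strand) had 92.0, 93.2 and 88.9 CPM in siControl and 29.1, 36.9 and 35.5 CPM in siSON. The LTBP4 log2 fold change was -1.43 (adjusted p 6.07e-08, SE 0.08), and its groups did not overlap. LTBP3 (chromosome 11, 65538805 to 65558930, minus strand), the most abundant LTBP gene per length in both groups, had 241, 283 and 252 CPM in siControl and 113, 137 and 115 CPM in siSON. LTBP3 fell by 1.08 on the log2 scale (adjusted p 5.20e-07, SE 0.08) with no overlap between groups. LTBP1 had 50.3, 42.6 and 42.5 CPM in siControl and 46.8, 42.2 and 35.3 CPM in siSON. Its groups overlapped, and its log2 fold change of -0.12 (adjusted p 0.307, SE 0.10) did not pass the threshold except with library size alone (-0.32, adjusted p 0.0168). As a share of the summed RPKM of the 4 genes, LTBP1 held 11.5% to 14.3% in siControl and 22.0% to 28.3% in siSON. The sum was 48.6 ± 1.80 RPKM in siControl and 23.2 ± 1.85 RPKM in siSON (SD, n = 3 each).

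**Figure D3:**
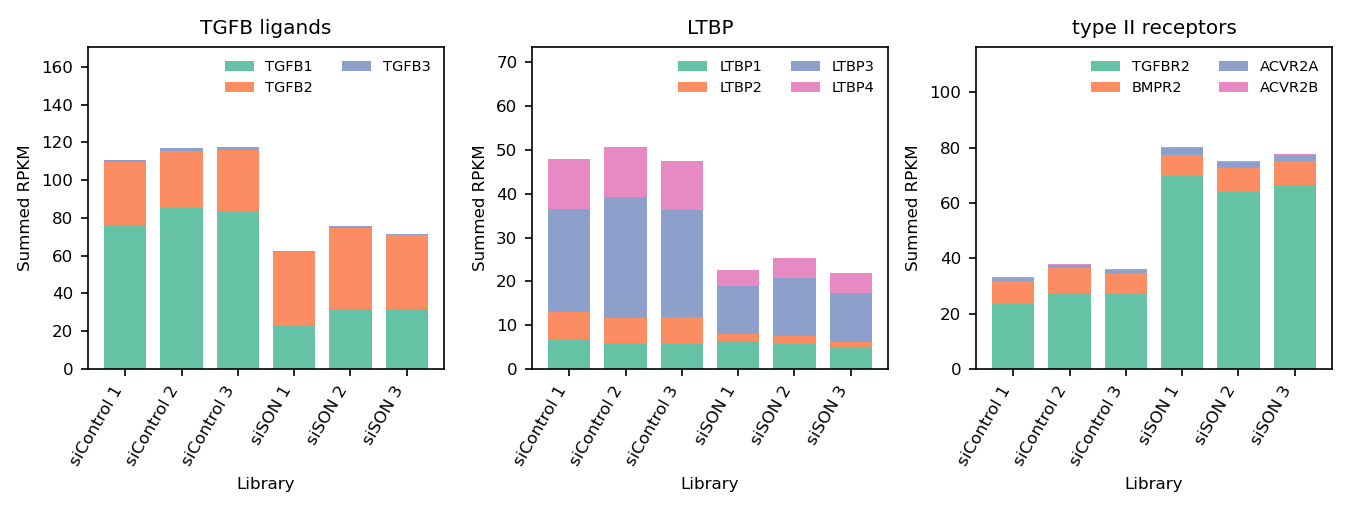
Summed RPKM of the TGF-beta ligands, the LTBP genes and the type II receptors in each library, stacked by gene. The ligand and LTBP sums lie lower in the 3 siSON libraries (62.6 to 75.5 and 21.8 to 25.3 RPKM) than in siControl, and the type II receptor sums lie higher (75.2 to 80.2 RPKM).

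Receptors were examined next. All 12 receptor and co-receptor genes were tested; 8 rose, ACVRL1 fell, and ACVR1, ACVR1C and BMPR2 did not pass the threshold. The 9 of 12 called stand beside 71.7% of all genes. With library size alone the count was 5 higher and 3 lower, and under cyclic loess 7 higher and 2 lower. TGFBR2, the type II receptor for TGF-beta (ENSG00000163513; chromosome 3, 30606502 to 30694142, plus strand), had 111, 128 and 127 CPM in siControl and 329, 300 and 312 CPM in siSON. The siSON libraries were all above the siControl libraries, and the log2 fold change was 1.36 (adjusted p 1.54e-08, SE 0.07). ACVR2A, a type II receptor for activins, had 6.92, 7.61 and 7.09 CPM in siControl and 16.1, 13.98 and 14.6 CPM in siSON. It rose by 1.05 on the log2 scale (adjusted p 1.69e-06, SE 0.09) with no overlap between groups. Its paralog ACVR2B went from 5.19 ± 0.347 to 6.92 ± 0.619 CPM (mean ± SD of 3 libraries each; log2 fold change 0.42, adjusted p 0.00773), a call lost with library size alone (0.22, adjusted p 0.124). BMPR2, the BMP type II receptor, was at 101 ± 8.38 and 100.01 ± 8.73 CPM (log2 fold change -0.01, adjusted p 0.894, SE 0.08). Under library size alone and cyclic loess BMPR2 was lower (-0.21 and -0.25, adjusted p 0.0434 and 0.0132). TGFBR2 thus held 70.9% to 74.5% of the summed type II RPKM in siControl and 84.8% to 87.1% in siSON, and BMPR2 held 21.7% to 25.1% and 9.43% to 11.8%. TGFBR3 (betaglycan), a co-receptor that presents TGFB2 and binds inhibin, had 11.7, 10.6 and 8.53 CPM in siControl and 25.4, 20.6 and 20.3 CPM in siSON, a log2 fold change of 1.11 (adjusted p 1.29e-05, SE 0.13).

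Among the 7 type I receptors, ACVR1B (ALK4, the activin receptor) changed most upwards. ACVR1B had 28.3, 30.6 and 30.4 CPM in siControl and 58.7, 56.3 and 61.1 CPM in siSON (chromosome 12, 51951667 to 51997078, plus strand). The groups were well apart, and the log2 fold change was 0.98 (adjusted p 1.43e-07, SE 0.06). TGFBR1 (ALK5), the partner of TGFBR2, rose less, from 37.9 ± 0.927 to 50.7 ± 4.02 CPM (mean ± SD of 3 libraries each; log2 fold change 0.42, adjusted p 0.000258, SE 0.07). The BMP receptors BMPR1A and BMPR1B rose by 0.32 and 0.38 on the log2 scale (adjusted p 0.00263 and 0.0269). The BMPR1A call was lost with library size alone (adjusted p 0.186) and under cyclic loess (adjusted p 0.0982). The BMPR1B call was lost with library size alone (adjusted p 0.243), with a mean count of at least 50 (adjusted p 0.0562), and without siControl replicate 2, siControl replicate 3 or siSON replicate 1 (adjusted p 0.0934, 0.115 and 0.0626). ACVR1 (ALK2), at 30.8 ± 0.833 and 31.5 ± 0.164 CPM, and ACVR1C (ALK7), at 0.766 ± 0.249 and 0.754 ± 0.255 CPM, did not pass the threshold (adjusted p 0.652 and 0.959). ACVR1 was lower with library size alone (-0.16, adjusted p 0.0355).

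ACVRL1 (ALK1), a type I receptor best known from endothelial cells, was low and was the only receptor that fell. It had 80, 114 and 119 counts in siControl and 4, 14 and 5 counts in siSON (chromosome 12, 51906908 to 51923361, plus strand), so that 9.68% of its CPM was left. ACVRL1 reached the count filter in 3 siControl libraries and 1 siSON library, so its place among the tested genes rests on the siControl group. The groups did not overlap, and the log2 fold change was -3.37 (adjusted p 2.10e-05, SE 0.41); it was -4.14 without siSON replicate 2. ENG (endoglin), the co-receptor that works with ACVRL1, fell from 38.3 ± 4.11 to 7.89 ± 1.44 CPM (mean ± SD of 3 libraries each; log2 fold change -2.28, adjusted p 6.04e-08). The endothelial markers CDH5 and VWF were under 0.2 CPM in both groups, PECAM1 was at 1.14 and 0.520 CPM, and KDR was at 0.524 and 0.369 CPM; their part in these falls was not tested.

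Of the 8 SMAD genes, 4 rose, SMAD5 fell, and SMAD3, SMAD7 and SMAD9 did not pass the threshold. The 62.5% called stands beside 71.7% of all genes, and the number called depended on scaling. Under cyclic loess all 8 were called, 5 higher and 3 lower. With library size alone 7 were called, 4 higher and 3 lower. In the TGF-beta and activin branch, SMAD2 went from 59.4, 58.4 and 56.6 CPM in siControl to 84.6, 76.0 and 77.6 CPM in siSON, with no overlap and a log2 fold change of 0.45 (adjusted p 4.26e-05, SE 0.06). SMAD3 (exon union of 9113 bases, beside 36366 for SMAD2) had 199, 229 and 226 CPM in siControl and 211, 216 and 231 CPM in siSON. The SMAD3 groups overlapped (log2 fold change 0.01, adjusted p 0.904), although the value was -0.31 (adjusted p 0.000974) under cyclic loess and -0.19 (adjusted p 0.0277) with library size alone. SMAD4, the common partner, rose from 42.1 ± 1.09 to 61.1 ± 1.65 CPM (mean ± SD of 3 libraries each; log2 fold change 0.54, adjusted p 7.18e-06, SE 0.06); 7.37% of its exonic bases are shared with AC091551.1 on the same strand.

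In the BMP branch the members moved apart. SMAD5 (ENSG00000113658; chromosome 5, 136132845 to 136188747, plus strand) had 60.2, 56.8 and 50.9 CPM in siControl and 29.7, 27.6 and 27.9 CPM in siSON. Every siSON library was lower, and SMAD5 fell by 0.98 on the log2 scale (adjusted p 4.74e-07, SE 0.08). SMAD1 had 10.4, 12.1 and 10.8 CPM in siControl and 16.8, 18.2 and 16.4 CPM in siSON, a rise of 0.63 on the log2 scale (adjusted p 7.80e-05, SE 0.09). Per length, SMAD5 held 66.7% ± 3.23 of the summed RPKM of SMAD1, SMAD5 and SMAD9 in siControl and 42.3% ± 3.04 in siSON (SD, n = 3 each). SMAD1 held 19.8% ± 1.43 and 38.0% ± 1.68. SMAD9 was at 7.17 ± 1.15 and 8.45 ± 1.77 CPM with overlapping groups (adjusted p 0.223). Without siSON replicate 1 its log2 fold change was 0.41 (adjusted p 0.0156), and under cyclic loess it was 0.48 (adjusted p 0.0236).

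SMAD6 and SMAD7 are feedback inhibitors that BMP and TGF-beta signals induce. SMAD6, whose promoter window is shown above, had 4.61, 7.30 and 6.49 CPM in siControl and 8.41, 11.8 and 10.5 CPM in siSON. Its groups did not overlap, and the log2 fold change was 0.74 (adjusted p 0.00269, SE 0.17). SMAD7, the more abundant of the pair, had 47.6, 57.6 and 54.6 CPM in siControl and 45.7, 46.6 and 48.9 CPM in siSON. The SMAD7 groups overlapped through siControl replicate 1 alone. The log2 fold change of SMAD7 was -0.18 (adjusted p 0.0547, SE 0.08), and -0.28 (adjusted p 0.00313) without that library. SMAD7 was also called with the replicate number as a block, library size alone, cyclic loess, no count filter or a mean count of at least 50.

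The members that fell had shorter introns and more GC-rich mRNAs at the median than those that rose. For the 9 lower members the median was 1092 bases for the median intron of the principal transcript and 62.7% for the GC content of its mRNA, and for the 16 higher members 3165.5 bases and 44.7%. Over protein-coding genes the medians were 1292 bases and 53.7% for those lower, and 2191.5 bases and 47.4% for those higher. LTBP3, LTBP4, ACVRL1 and LTBP2 had median intron lengths of 171, 479, 563 and 836 bases and mRNA GC contents of 67.8%, 67.3%, 63.3% and 57.2%. TGFB1 was as rich in GC (63.5%) with longer introns (median 2964.5 bases). TGFBR2 and BMP6, which rose, had median introns of 9745.5 and 8479 bases. BMP4 and ACVR2B rose with short introns (1046 and 491.5 bases), and SMAD5 and INHBA fell with long introns (5685 and 5965.5 bases) and GC contents of 36.9% and 39.1%. Across the 32 tested members, log2 fold change and log10 median intron length had Pearson's r = 0.48 and Spearman's rho = 0.31. Across 12665 tested protein-coding genes the values were 0.27 and 0.25. With mRNA GC content the members had r = -0.35 and rho = -0.23, and 12969 protein-coding genes had -0.26 and -0.21. With log10 exon number the members had r = -0.39 and rho = -0.31, and protein-coding genes 0.02 and 0.05; with mean log2 CPM the members had -0.18 and -0.25, and protein-coding genes 0.33 and 0.32. The 7 members not called had the longest introns of these groups, at a median of 4507 bases. These correlations run across genes measured in the same 6 libraries, and genes are not independent replicates. The values are descriptions of these genes and were not tested.

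**Figure D4:**
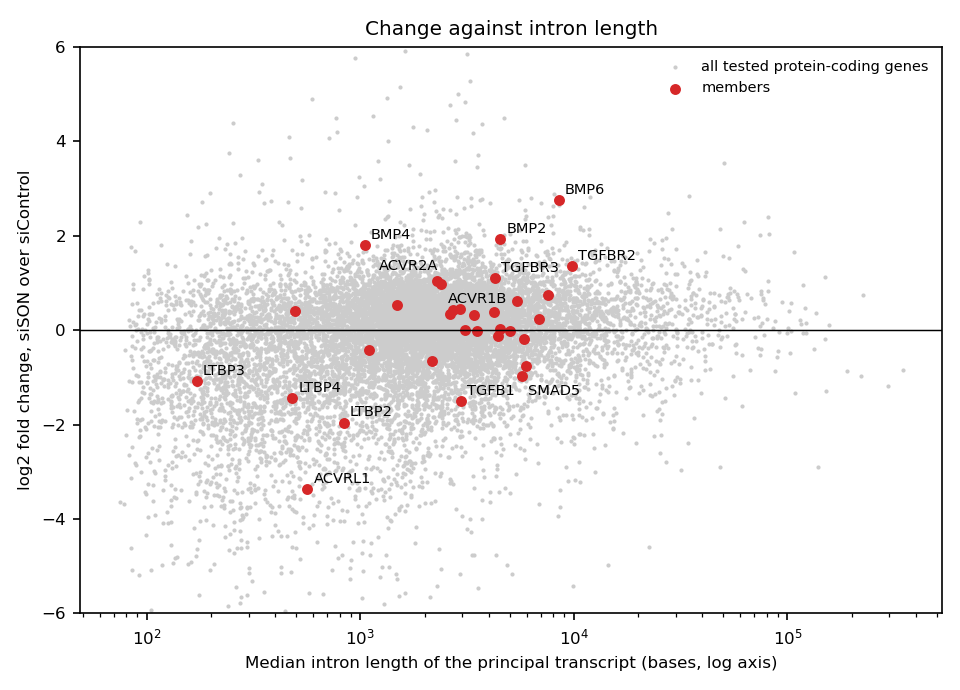
Log2 fold change, siSON over siControl, against the median intron length of the principal transcript (log axis) for the members (red) and all 12665 tested protein-coding genes with introns (grey); members near or past a 2-fold change are named, and 35 grey genes lie outside the plotted range. LTBP3, LTBP4, ACVRL1 and LTBP2 lie low on the left, and TGFBR2 and BMP6 lie high on the right.

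Other genes of the pathway were counted in 8 lists written from general knowledge. The counts of each list stand beside 71.7% of all genes tested called, 35.2% higher and 36.5% lower. AMH, GDF9, BGN, EMILIN1, ITGB6, TLL2 and FOXH1 reached the count filter in 3 siControl libraries but fewer siSON libraries. The place of these genes among those tested thus rests on the siControl group. LRRC32 reached the filter in 2 siControl libraries and 1 siSON library. Of 6 other ligands tested, 4 fell and none rose; with a mean count of at least 50 required, 2 were called. GDF15, a stress-responsive cytokine, had 227, 259 and 277 CPM in siControl and 9.27, 15.9 and 17.7 CPM in siSON, a log2 fold change of -4.16 (adjusted p 1.57e-07, SE 0.21). GDF11, an activin-like ligand, and AMH, the anti-Müllerian hormone, also fell (log2 fold changes -1.33 and -2.80, adjusted p 1.78e-05 and 3.46e-05), AMH from only 0.975 CPM, with 5, 9 and 8 counts in the siSON libraries. Of 6 co-receptors tested, 2 rose and 2 fell; besides ENG, the pseudoreceptor BAMBI rose by 0.90 and TGFBR3L fell by 1.52 on the log2 scale (adjusted p 5.61e-07 and 5.81e-05).

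Of 11 secreted antagonists tested, 5 rose and 3 fell, beside 35.2% higher and 36.5% lower over all genes. With library size alone none was higher and 6 were lower, and the number called was 5 without siControl replicate 1, under cyclic loess or with a mean count of at least 50. FSTL3, which binds and blocks activins, had 167, 159 and 171 CPM in siControl and 14.2, 24.0 and 21.3 CPM in siSON (log2 fold change -3.07, adjusted p 2.16e-07, SE 0.16). TWSG1, a BMP-binding partner of chordin, and BGN, the matrix proteoglycan biglycan, fell as well (log2 fold changes -1.15 and -3.06, adjusted p 4.38e-07 and 0.000124), BGN to 7, 10 and 2 counts. Of 16 genes of matrix storage and activation tested, 5 rose and 5 fell; with library size alone 4 were higher and 8 lower, and under cyclic loess 3 were higher and 8 lower. MFAP2, a microfibril protein, fell from 13.9 ± 0.611 to 1.02 ± 0.124 CPM (mean ± SD of 3 libraries each; log2 fold change -3.77, adjusted p 2.02e-09). THBS1, which can activate latent TGF-beta, rose from 766, 732 and 721 CPM to 4017, 3245 and 3066 CPM (log2 fold change 2.22, adjusted p 1.18e-08). The integrin subunit ITGB5 rose by 1.36 (adjusted p 7.38e-09) on the same scale.

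Inside the cell, 21 of 31 tested helpers and SMAD cofactors rose and 7 fell. Over all genes tested, 35.2% were higher and 36.5% were lower. With library size alone 15 helpers and cofactors were higher and 7 lower. The smallest adjusted p-values belonged to TGFB1I1 (Hic-5, a focal adhesion adaptor; log2 fold change -1.83), YAP1 (a transcriptional coactivator; 1.18) and STRAP (a receptor-associated protein; 1.161), with adjusted p of 5.09e-09, 5.44e-09 and 8.63e-09. Of 23 tested inhibitors, 14 rose and 5 fell, and with library size alone 13 were higher and 7 lower. STUB1, a ubiquitin ligase, and CTDSP1, a phosphatase, fell (log2 fold changes -2.45 and -2.80), whereas the related phosphatase CTDSP2 rose (1.35; adjusted p 9.93e-10, 5.85e-09 and 4.59e-09).

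Genes known to be induced by TGF-beta changed in both directions: of 29 tested, 11 rose and 13 fell. SPARC and ADAM19 rose by 1.21 and 1.56, and CNN1 (calponin) fell by 3.23 on the log2 scale (adjusted p 9.72e-09, 1.27e-07 and 7.80e-08). ACTA2, smooth muscle actin, a common readout of the pathway, was chosen after its values were seen. It had 898, 1179 and 1219 CPM in siControl and 119.5, 167 and 168 CPM in siSON (log2 fold change -2.86, adjusted p 2.62e-07, SE 0.16). Of 11 tested genes known to be induced by BMP, 5 rose and 2 fell. HEY1, ATOH8 and HES1, transcriptional regulators, rose by 1.96, 1.14 and 0.97 (adjusted p 1.16e-06, 2.63e-06 and 4.63e-06). The classic BMP targets ID1 and ID3, also chosen after their values were seen, were at 58.9 ± 10.2 and 66.1 ± 5.90 CPM, and at 126 ± 22.3 and 135 ± 11.5 CPM (SD, n = 3 each), and did not pass the threshold (log2 fold changes 0.17 and 0.11, adjusted p 0.214 and 0.454). ID2, of the same family and also chosen after its values were seen, was called lower (log2 fold change -0.57, adjusted p 0.0179). Its groups overlapped. The share called ran from 62.5% to 90.3% over the 8 lists, beside the 71.7% of all genes given above.

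**Figure D5:**
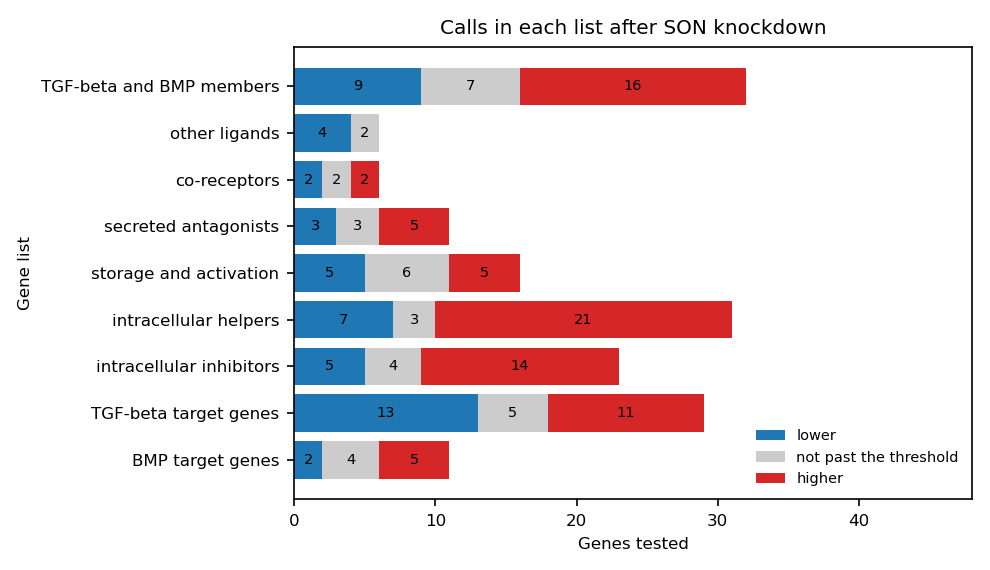
Number of tested genes lower, not past the threshold and higher after SON knockdown (adjusted p under 0.05) among the members and in each of the 8 lists. The intracellular helpers had 21 genes higher of 31, and the other ligands had none higher of 6. Over all genes tested, 35.2% were higher and 36.5% were lower.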

How the data were processed

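The authors deposited 1 table of whole-number read counts per gene, 1 column for each library and no pooled column. Per the submitters' processing notes, cutadapt 1.16, STAR 2.5.2a, featureCounts 1.6.2, DESeq2 1.28.1 and hg38 were used, with no roles given. The annotation, strand setting and treatment of multi-mapping reads are not given in the sources used here, so counts of overlapping or near-identical genes are uncertain. Columns were matched to libraries by title. All 58735 gene identifiers matched GENCODE 29 (GRCh38), which gave positions, exon-union lengths for RPKM, and introns and GC content of the principal transcript.

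The whole table was fitted in R 4.3.3 with edgeR 4.0.16: filterByExpr (minimum count 10), TMM scaling and a robust quasi-likelihood test with group as the only term. Benjamini-Hochberg adjustment covered the 16591 genes kept. CPM values use TMM-scaled library sizes; standard errors are the log2 fold change over the square root of F. The fit was checked on simulated counts in which few genes changed. Most genes tested were called in these data, so that check does not bear on scaling or false calls here. The smallest level visible, 3 counts, was 0.0402 to 0.0590 CPM, for counting error only. Alternatives were the replicate number as a block, RLE factors, library size alone, cyclic loess (limma 3.58.1, prior count 2), limma-voom, DESeq2 1.42.0, no count filter, a mean count of at least 50, and leaving out each library.

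The genes named are SON, every member, and, in each list, the 3 called genes of lowest adjusted p; others are said to be chosen after their values were seen. The rule for members uses names alone and the lists and markers come from general knowledge, but all were chosen with earlier results of these data known. ENG is among its list's named genes, and endothelial, leukocyte, epithelial, mesenchymal and retinal pigment epithelial markers served as checks.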

Additional observations from a re-analysis of the deposited data

How the results depend on the processing

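The 14 alternatives left SON at log2 fold changes of -2.42 to -2.10 (-2.18 to -2.10 over the 6 fits that each left out one library), and 24 to 26 members changed (24 to 26 with one library left out). Of these, 10 to 14 changed at least 2-fold (10 to 12 with one library left out). The median log2 fold change of the members, 0.28, was 0.082 with library size alone, where all genes shifted by a median of -0.20 (0.14 under cyclic loess), and 0.18 to 0.35 with one library left out. With a mean count of at least 50, the calls were 2 of the other ligands of 3 tested and 5 of the secreted antagonists of 9 tested; the antagonists also gave 5 calls under cyclic loess, and 5 to 9 with one library left out. Of 447 single-member values under alternatives, 409 kept their direction and side of the threshold. Direction reversed in 15, all of members not called in the main analysis. For SMAD3 these were -0.19 (library size alone), -0.048 (mean count of at least 50), -0.31 (cyclic loess), and -0.079 and -0.019 without siControl replicate 1 and siSON replicate 3 (-0.079 to 0.050 with one library left out). For ACVR1 they were -0.16, -0.023 and -0.0089 under the same 3 settings and -0.0072 without siControl replicate 2 (-0.0072 to 0.049 with one library left out). ACVR1C gave 0.44 under cyclic loess and 0.25, 0.15 and 0.10 without siControl replicate 2, siSON replicate 1 and siSON replicate 3 (-0.32 to 0.25). BMPR2 gave 0.034 and 0.072 without siControl replicate 2 and siSON replicate 1 (-0.074 to 0.072). The causes were not tested.

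The libraries share replicate numbers whose meaning the labels do not give. Deviations from the group means correlated at 0.0461 to 0.194 between same-numbered libraries and at -0.138 to 0.0286 otherwise, and each library correlated best with its own number. With the replicate block 26 members changed, 16 higher and 10 lower, SMAD7 being added (-0.17, adjusted p 0.0200); no other member's call changed. The smallest level visible was 3 counts, or 0.0402 to 0.0590 CPM. The 11 members under the count filter had at most 24 counts in a library, reached by INHA in siControl replicate 1. In the fit with no count filter 38 members were tested and INHA was the only one of the 11 called. INHA had 24, 4 and 8 counts in siControl and 2, 0 and 3 in siSON.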
